A study of Homo sapiens with 18 samples.

Results

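The histone genes described here are the rows of the count table whose symbols begin H1-, H2AC, H2BC, H3C or H4C and end in a number: 70 of 43236 symbols. They comprise 10 H1, 16 H2A, 17 H2B, 13 H3 and 14 H4 genes. Of the 70, 42 had enough counts to be tested (5 H1, 9 H2A, 12 H2B, 7 H3 and 9 H4). Another 28 did not pass the filter on low counts, among them 5 with a count of 0 in every library (H1-8, H2AC1, H2BC1, H3C14 and H4C7). The 5 histone genes listed as of the germline type (H1-6, H1-7, H1-8, H2AC1 and H2BC1) were all among the untested ones.

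Transcripts were measured in NCI-H1693, an established human line of non-small cell lung cancer that the labels describe as SMARCA4-deficient. The cells were kept in 50 nM PRT3789, a degrader selective for SMARCA2, or in the solvent DMSO, for 6, 48 or 72 h. Each of the 6 groups (DMSO at 6 h, PRT3789 at 6 h, DMSO at 48 h, PRT3789 at 48 h, DMSO at 72 h and PRT3789 at 72 h) held 3 libraries, and all groups shared the one cell line and its SMARCA4 deficiency. SMARCA2 and SMARCA4 are the alternative motor proteins of the SWI/SNF complexes, which move nucleosomes.

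Core histones H2A, H2B, H3 and H4 form the spool of the nucleosome, and H1 linker histones bind the DNA that enters and leaves it. Most histone genes are copied during DNA synthesis. Their messages usually end in a short hairpin, the stem-loop, in place of a poly(A) tail, and the stem-loop binding protein SLBP carries them through processing and translation. Some histone genes instead make, or can also make, messages with a tail, which persist outside S phase and in cells that divide slowly. The libraries were enriched with oligo(dT), which selects for tails. A count here is therefore no measure of a gene's whole output, and molecules of a gene with and without a tail cannot be told apart in it.

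The stem-loop was present in the annotated messages of 66 of the 70 genes. It was searched for as GGNNNTTNTNANNNCC on the message strand, after the stop codon of a GENCODE v44 transcript. The same letters occur somewhere in a transcript of 6.90% of 19702 protein-coding genes. The 4 genes that lack them belong to the H1 family. There were 10 versions, of which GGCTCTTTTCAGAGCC was the most frequent, in 38 genes. All 14 H4 genes carry a form with a GGCCC stem, and 9 of them carry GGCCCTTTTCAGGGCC. The sequences of 5 genes whose counts rose with PRT3789 and of H4C15, whose counts did not pass the test, follow as DNA letters with the stem-loop in capitals.
H1-2: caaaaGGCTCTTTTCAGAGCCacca
H2AC8: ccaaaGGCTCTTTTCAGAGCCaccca
H2BC7: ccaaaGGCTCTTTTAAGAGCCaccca
H3C6: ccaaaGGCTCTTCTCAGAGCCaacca
H4C8: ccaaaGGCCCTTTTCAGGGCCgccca
H4C15: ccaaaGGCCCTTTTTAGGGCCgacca
The capitals lie in the 3′ UTR, on GRCh38, at chr6:26055744-26055759 for H1-2 (minus strand), chr6:26217417-26217432 for H2AC8 (plus strand) and chr6:26199968-26199983 for H2BC7 (plus strand). Those of H3C6 lie at chr6:26225596-26225611 (plus strand), of H4C8 at chr6:26285131-26285146 (minus strand) and of H4C15 at chr1:149860769-149860784 (minus strand). The annotated H1-2 message stops 4 bases after its stem-loop. By contrast, GENCODE lists transcripts that run 1862 bases past it in H3C6, 1655 in H4C8 and 1314 in H4C15. Thus a stem-loop in the sequence and a longer, potentially tailed transcript are not exclusive.

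Library totals ran from 23154484 to 31094797 counts, and the 70 genes together took a mean of 0.0730% to 0.104% of the counts of a group. The highest count of an untested histone gene in any library was 22, and 3 counts, the floor used here, correspond to 0.0965 to 0.130 CPM (counts scaled to library size with TMM factors). SMARCA2 mRNA, which a protein degrader need not alter, had a log2 fold change of 0.04 ± 0.10 (SE) at 6 h, -0.19 ± 0.10 at 48 h and -0.44 ± 0.10 at 72 h, the last with an edgeR adjusted p of 0.00108. Epithelial markers summed to 4136 to 11026 CPM per library, with lower sums with PRT3789 at 48 and 72 h. The 8 markers of blood, endothelial and fibroblast cells summed to 12.7 to 26.8 CPM, with 1 of the 8 at 0 in every library.

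Some histone transcripts rose under PRT3789 at the later times. At 48 h, 13 of the 42 tested genes were called higher and 0 lower, and at 72 h 14 were called higher and 0 lower (edgeR quasi-likelihood test, Benjamini-Hochberg adjusted p under 0.05 over all 16291 tested genes). Over all tested genes, 42.1% were called at 48 h, with 21.2% higher and 20.9% lower, and 43.4% at 72 h, with 21.3% higher and 22% lower. The share of tested histone genes called was 30.95% at 48 h and 33.3% at 72 h, so the shares lay below those of all genes, and the calls lay on the higher side; neither difference was tested. The median log2 fold change of the 42 genes was 0.22 at 48 h and 0.26 at 72 h, beside 0.01 at both times over all genes. A gene that passed the filter only through a group with high counts had a greater chance of being called, so the counts describe the tested genes and not all 70. H3C7, which did not pass the filter, had 1, 9 and 2 counts in the DMSO libraries and 0 in all 3 PRT3789 libraries at 48 h, and was called lower at that time when no filter was applied (edgeR adjusted p = 0.0205).

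The calls of the later times overlapped in 10 genes, 76.9% of the 48 h list and 71.4% of the 72 h list. They were H1-2, H2AC7, H2AC8, H2AC18, H2BC7, H2BC8, H2BC12, H3C4, H3C6 and H4C8. The same overlap was not counted over all tested genes, so the percentages do not set the histone genes apart. H2AC11, H2AC19 and H3C2 were called at 48 h alone, and H2AC6, H2BC5, H2BC15 and H2BC21 at 72 h alone, though 0 of the 42 genes had a called change of the PRT3789 effect between 48 and 72 h (edgeR; 4 at an unadjusted p under 0.05, and 0 with DESeq2 as well). Over all genes, 0% were called in that comparison. At 6 h only H2BC5 was called, and it was lower.

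**Figure D1:**
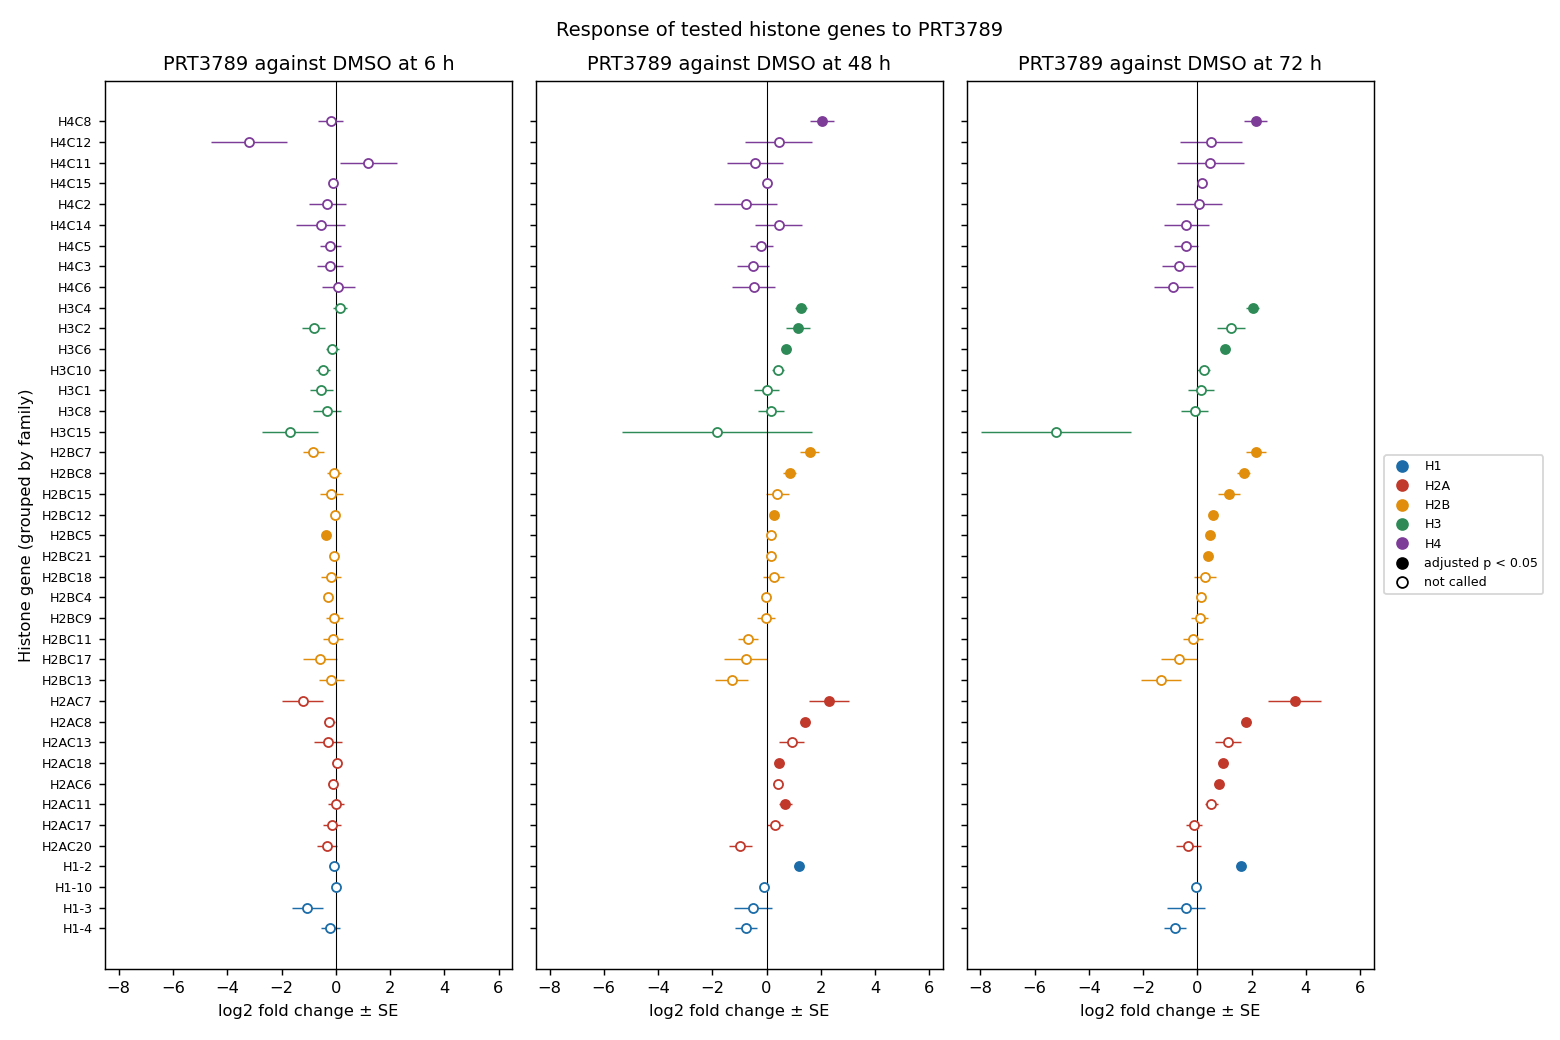
Log2 fold change of PRT3789 against DMSO (x axis, with SE as bars) for 40 tested histone genes, grouped by family, at each time, with filled points for an adjusted p under 0.05. H2AC19 is left out because its libraries with DMSO at 48 and 72 h were all at 0. At 48 and 72 h the filled points lie to the right of 0, and at 6 h the single filled point, H2BC5, lies to the left.

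Of the sums of the core histone families, those of H2A and H3 had the highest ratios of PRT3789 to DMSO. The H2A sum was 84.4 ± 10.4 CPM (SD, n = 3) with DMSO and 129.8 ± 7.59 with PRT3789 at 48 h, and 61.4 ± 3.39 against 122 ± 4.99 at 72 h, a ratio of 1.54 and then 1.98. For H3, the lowest family, the sums were 8.83 ± 0.994 and 14.4 ± 0.439 CPM at 48 h and 8.09 ± 0.669 and 17.0 ± 1.27 at 72 h, a ratio of 1.63 and 2.10. H2B sums stood in a ratio of 1.12 and 1.36 and H4 sums of 1.05 and 1.16. The libraries of DMSO and PRT3789 did not overlap at 48 or 72 h in the H2A, H2B and H3 sums, whereas in the H4 sum they overlapped at 48 h. At 6 h the ratios ran from 0.711 for H3 to 0.907 for H4, and the libraries of both groups overlapped in these 4 families. No test is given for these sums. Because the libraries come from bulk cells, a change in the number of cells in a given phase and a change of RNA per cell cannot be told apart.

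**Figure D2:**
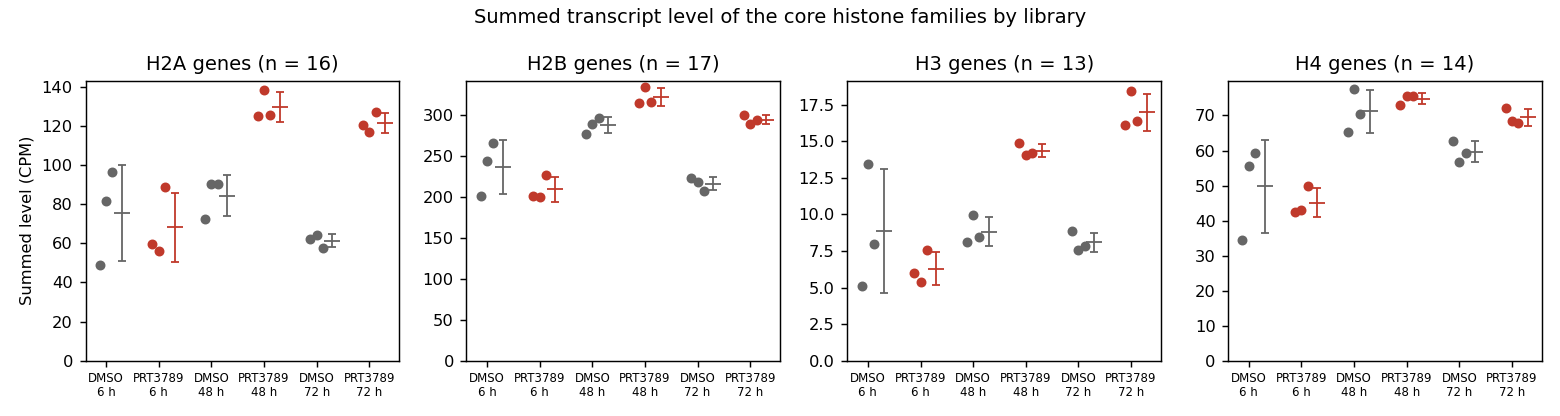
Summed level in CPM (y axis, from 0) of all members of the H2A, H2B, H3 and H4 families in every library (points) by treatment and time, with the group mean and SD beside them. The PRT3789 points at 48 and 72 h (red) lie above the DMSO points (grey) for H2A, H2B and H3.

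The sum of the 66 genes with a stem-loop was higher with PRT3789 at the later times. They summed to 490.5 ± 28.2 CPM with DMSO and 626 ± 24.4 with PRT3789 at 48 h, and to 375 ± 13.2 and 589.6 ± 11.7 at 72 h. The highest means over all libraries in this set were those of H2BC12 (93.0 CPM), H2BC4 (77.9) and H2BC5 (66.3). H2BC12, H2BC5, H2AC6 and H2BC21 of the set are known to give tailed messages. The sum is therefore no measure of messages that end in a stem-loop. The 13 and the 14 called genes belonged to the 40 tested genes with a stem-loop. With 2 tested genes in the other set, the sets were not compared. By the span of the gene in RefSeq, of 10 tested genes longer than 1000 bases 3 were called higher at 48 h and 5 at 72 h. Of 32 shorter ones 10 and 9 were called higher. The shares of all tested genes called higher were 21.2% and 21.3%.

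Among the linker histones, H1-2 rose and no other one that was tested passed the test at 48 or 72 h. H1-2, on chromosome 6 at 26055740 to 26056470 (GRCh38), encodes a linker histone of dividing cells and is a gene of 1 exon. Its level in the 3 DMSO libraries was 33.8, 38.6 and 39.3 CPM at 48 h and 28.3, 29.4 and 27.1 CPM at 72 h. With PRT3789 it was 81.8, 90.2 and 81.4 CPM at 48 h and 85.5, 82.9 and 90.2 CPM at 72 h. Every treated library at these times lay above every control of its time. The log2 fold change was 1.18 ± 0.16 (SE) at 48 h and 1.61 ± 0.16 at 72 h (edgeR adjusted p = 1.5e-05 and 4.3e-07). At 6 h the DMSO libraries held 25.7, 40.3 and 44.5 CPM and the PRT3789 libraries 30.2, 30.0 and 44.5 CPM, and the groups overlapped.

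H1-10, a replacement linker histone, had 149, 138 and 122 CPM with DMSO and 129.6, 128 and 125 CPM with PRT3789 at 48 h. Its values at 72 h were 125, 129 and 115 CPM against 126, 111 and 124 CPM, and at 6 h 163, 177 and 175 CPM against 161, 167 and 186 CPM. Its groups overlapped at all times. H1-3 and H1-4, linker histones of the replication-dependent kind, stayed under 2 CPM in every library and had log2 fold changes below 0 at all times, from -1.04 to -0.20, none of them called.

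Of the 9 tested H2A genes, 5 were called higher at 48 h and 4 at 72 h, beside 21.2% and 21.3% of all tested genes. H2AC8, on chromosome 6 at 26216921 to 26217437, rose from 7.34, 7.09 and 7.93 CPM with DMSO to 19.3, 21.5 and 19.1 CPM with PRT3789 at 48 h. At 72 h it was 5.98, 5.12 and 4.55 CPM with DMSO and 18.6, 18.9 and 17.0 CPM with PRT3789. The treated libraries lay apart from the controls at both times, with a log2 fold change of 1.42 ± 0.18 and 1.80 ± 0.19 (edgeR adjusted p = 7.8e-06 and 6.2e-07). At 6 h its values of 3.94, 7.24 and 7.38 CPM with DMSO and 4.94, 3.92 and 6.72 CPM with PRT3789 overlapped.

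H2AC6, a gene known to give tailed messages in differentiated cells, had 19.4, 24.7 and 23.8 CPM with DMSO and 29.4, 31.03 and 29.9 CPM with PRT3789 at 48 h. At 72 h it had 19.1, 20.03 and 17.6 CPM against 33.5, 30.7 and 33.4 CPM. The treated libraries were higher without overlap at both times, but only the 72 h difference passed the test (log2 fold change 0.41 ± 0.17, edgeR adjusted p = 0.062, and 0.78 ± 0.17, adjusted p = 0.0012). At 6 h its levels were 9.33, 15.99 and 17.9 CPM with DMSO and 11.9, 11.8 and 16.7 CPM with PRT3789.

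H2AC18 and H2AC19 are copies with identical coding sequences, so that reads could be assigned to either. H2AC18 had 40.2, 50.2 and 52.1 CPM with DMSO and 64.3, 73.6 and 57.9 CPM with PRT3789 at 48 h, and 31.6, 34.0 and 29.3 CPM against 58.3, 59.3 and 64.6 CPM at 72 h. The 6 h values were 32.1, 40.9 and 51.6 CPM against 37.8, 34.0 and 55.3 CPM. H2AC19 was at 0 in all DMSO libraries of 48 and 72 h, at 1.99, 3.15 and 8.02 CPM with PRT3789 at 48 h, and at 3.02, 0 and 2.75 CPM at 72 h. In DMSO at 6 h it was at 0, 6.32 and 11.9 CPM and with PRT3789 at 0, 0 and 2.40 CPM, an on and off pattern that makes its own call uncertain. Counted as 1 gene, the copies rose from 47.5 ± 6.41 to 69.7 ± 6.16 CPM at 48 h (log2 fold change 0.55 ± 0.20, edgeR adjusted p = 0.037). At 72 h they rose from 31.6 ± 2.35 to 62.6 ± 4.15 CPM (log2 fold change 0.99 ± 0.20, edgeR adjusted p = 0.00083). H2AC18 on its own gave 0.46 ± 0.17 at 48 h (adjusted p = 0.041), a call that was lost without DMSO at 48 h replicate 1 (adjusted p = 0.152) and in 11 other alternatives.

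H2AC7 was low but showed a large relative change. It had 0.298, 0.639 and 0.110 CPM with DMSO and 1.21, 2.07 and 2.09 CPM with PRT3789 at 48 h, and 0, 0 and 0.233 CPM against 1.15, 0.885 and 1.08 CPM at 72 h (log2 fold change 2.31 ± 0.74 and 3.60 ± 0.98, edgeR adjusted p = 0.019 and 0.0063). The 48 h call was lost without DMSO replicate 1 or 3 or PRT3789 replicate 2 or 3 of that time, or without a filter on low counts, with adjusted p between 0.051 and 0.076. H2AC11 rose at 48 h, from 1.83, 2.46 and 2.06 CPM to 3.41, 2.98 and 3.88 CPM (log2 fold change 0.69 ± 0.24, edgeR adjusted p = 0.027), and this call was lost without DMSO replicate 1 or 3 or PRT3789 replicate 1 or 3 (adjusted p = 0.063 to 0.109). H2AC20 had 0.783, 1.60 and 1.14 CPM with DMSO and 0.640, 0.497 and 0.663 CPM with PRT3789 at 48 h. That difference did not pass the test (log2 fold change -0.96 ± 0.42, edgeR adjusted p = 0.076), and with the 48 h libraries fitted apart it did (adjusted p = 0.026). At 72 h H2AC20 had 0.915, 0.374 and 0.698 CPM with DMSO and 0.486, 0.476 and 0.626 CPM with PRT3789, and the groups overlapped. At 6 h it had 0.954, 3.35 and 3.07 CPM against 1.71, 1.84 and 2.37 CPM.

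Of the 12 tested H2B genes, 3 were called higher at 48 h and 6 at 72 h, beside 21.2% and 21.3% of all tested genes. H2BC12 and H2BC5 are among the histone genes known to give tailed messages. H2BC12, on chromosome 6 at 27146361 to 27146855, had 87.9, 88.9 and 86.5 CPM with DMSO and 103, 112 and 105 CPM with PRT3789 at 48 h, and 75.3, 72.4 and 67.1 CPM against 111, 103 and 108 CPM at 72 h. The replicates lay close together, so that small differences passed the test (log2 fold change 0.28 ± 0.06 and 0.58 ± 0.06, edgeR adjusted p = 0.0019 and 1.05e-06). Its 6 h values were 88.2, 91.2 and 101 CPM against 87.8, 92.7 and 92.3 CPM.

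H2BC5 was called at 6 h and 72 h in opposite directions. It had 43.4, 50.1 and 52.8 CPM with DMSO and 40.6, 35.2 and 39.6 CPM with PRT3789 at 6 h (log2 fold change -0.34 ± 0.08, edgeR adjusted p = 0.012), where over all genes 4.33% were called, 3.04% lower. It had 79.0, 77.1 and 76.7 CPM against 88.7, 87.0 and 86.0 CPM at 48 h, and 60.8, 62.6 and 59.3 CPM against 90.0, 80.0 and 84.8 CPM at 72 h (log2 fold change 0.48 ± 0.07, edgeR adjusted p = 4.2e-05). At 6 h the call was lost without DMSO replicate 2 (adjusted p = 0.069), DMSO replicate 3 (0.081) or PRT3789 replicate 2 (0.068). It was also lost with the trend over transcript length removed, at an adjusted p of 0.253. The change of the PRT3789 effect from 6 to 48 h was 0.51 ± 0.11 (edgeR adjusted p = 0.0021).

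H2BC4, whose annotated span takes in a longer transcript, was not called at any time between the treatments. It had 87.1, 97.3 and 109.6 CPM with DMSO and 93.6, 104 and 94.9 CPM with PRT3789 at 48 h, and 65.7, 65.9 and 61.5 CPM against 68.1, 74.6 and 68.4 CPM at 72 h. Values at 6 h were 54.9, 80.4 and 89.8 CPM against 56.0, 55.6 and 74.8 CPM. The log2 fold change was -0.00 ± 0.14 at 48 h and 0.13 ± 0.14 at 72 h, and neither was called.

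H2BC8 and H2BC7, which lay at lower levels than H2BC12, had higher log2 fold changes. H2BC8 went from 3.47, 5.24 and 5.33 CPM to 7.86, 8.70 and 8.88 CPM at 48 h and from 3.13, 3.10 and 2.63 CPM to 8.95, 8.78 and 11.1 CPM at 72 h (log2 fold change 0.86 ± 0.24 and 1.70 ± 0.24, edgeR adjusted p = 0.0075 and 2.1e-05). H2BC7 went from 0.783, 0.607 and 0.184 CPM to 1.39, 1.53 and 1.86 CPM at 48 h and from 0.458, 0.486 and 0.332 CPM to 2.26, 1.87 and 1.67 CPM at 72 h (log2 fold change 1.59 ± 0.36 and 2.18 ± 0.37, edgeR adjusted p = 0.0017 and 0.000101). In both genes every treated library lay above every control at these times. H2BC21, known for tailed messages, rose at 72 h from 12.6, 10.8 and 11.8 CPM to 14.6, 15.7 and 15.5 CPM (log2 fold change 0.38 ± 0.08, edgeR adjusted p = 0.00065). H2BC15 rose at 72 h from 0.774, 0.486 and 0.997 CPM to 1.91, 1.57 and 1.60 CPM (log2 fold change 1.15 ± 0.40, edgeR adjusted p = 0.028). The H2BC15 call was lost without DMSO replicate 1 (adjusted p = 0.064), DMSO replicate 2 (0.114) or PRT3789 replicate 1 (0.079) of 72 h.

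**Figure D3:**
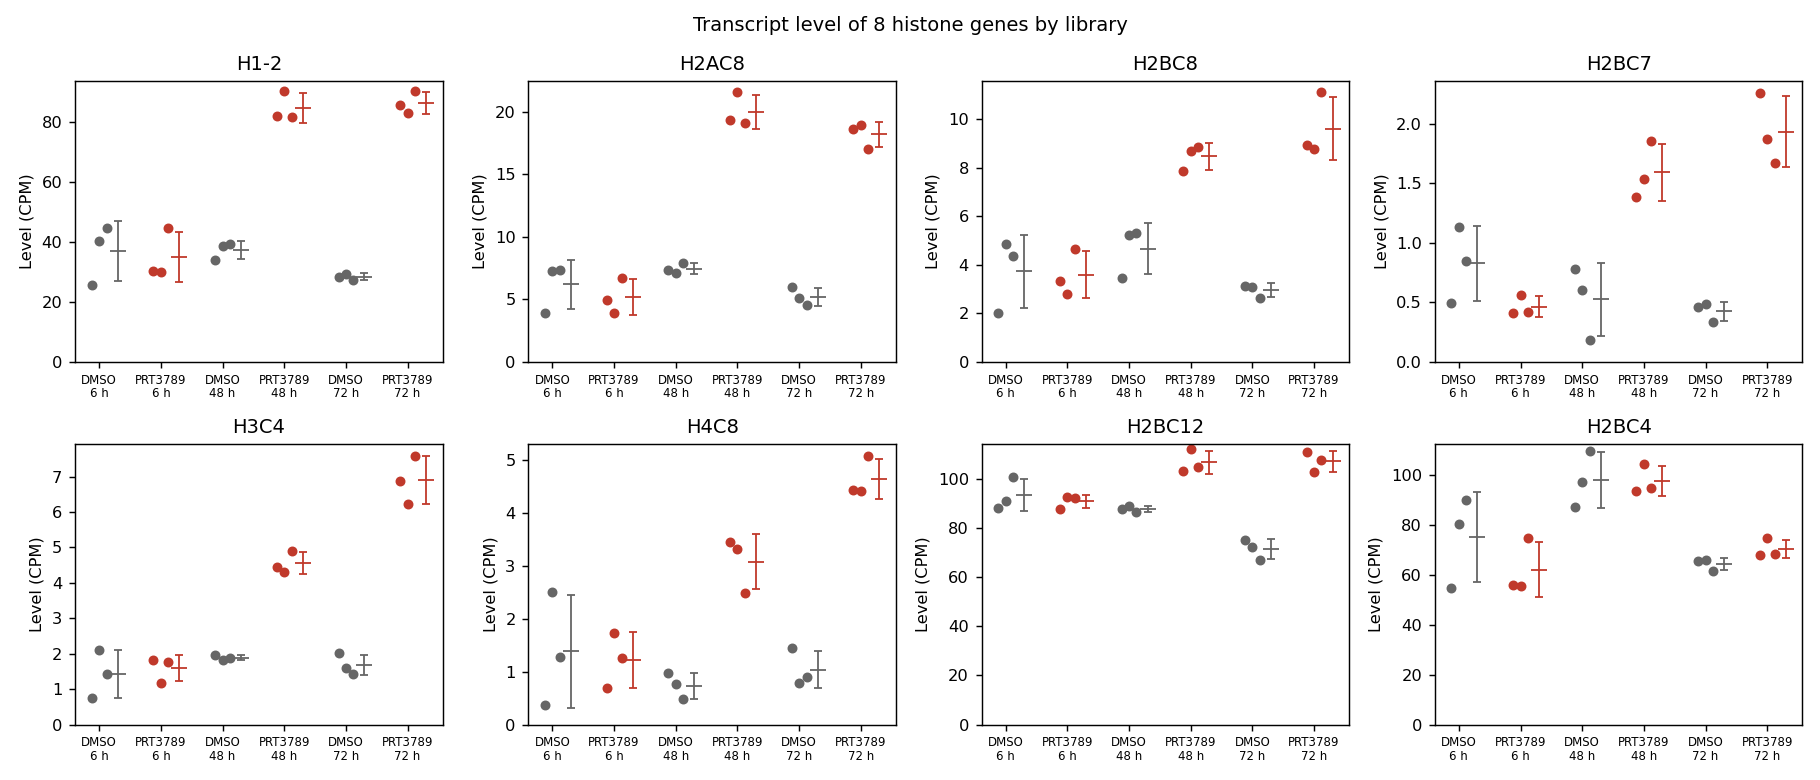
Level in CPM (y axes, from 0) of 8 histone genes in every library (points), with the group mean and SD beside them. H1-2, H2AC8, H2BC8, H2BC7, H2BC12, H3C4 and H4C8 lie higher with PRT3789 (red) than with DMSO (grey) at 48 and 72 h, while H2BC4 was not called at these times.

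H3 genes were low, with a group sum between 6.30 and 17.0 CPM. H3C6, on chromosome 6 at 26224199 to 26227473, had 2.87, 4.28 and 3.78 CPM with DMSO and 5.94, 6.22 and 5.74 CPM with PRT3789 at 48 h, and 3.63, 3.03 and 3.39 CPM against 6.32, 8.30 and 5.91 CPM at 72 h (log2 fold change 0.71 ± 0.18 and 1.03 ± 0.18, edgeR adjusted p = 0.0049 and 0.00018). At 6 h it had 1.08, 1.26 and 1.94 CPM against 1.44, 1.06 and 1.36 CPM. H3C4 had 1.98, 1.82 and 1.87 CPM with DMSO and 4.45, 4.31 and 4.91 CPM with PRT3789 at 48 h, and 2.01, 1.61 and 1.43 CPM against 6.87, 6.23 and 7.58 CPM at 72 h (log2 fold change 1.27 ± 0.23 and 2.03 ± 0.23, edgeR adjusted p = 0.00028 and 1.5e-06). At 6 h its values of 0.747, 2.09 and 1.42 CPM with DMSO and 1.82, 1.17 and 1.78 CPM with PRT3789 overlapped. RefSeq gives H3C4 a span of 2510 bases that takes in the 510 bases of H2AC7 on the same strand, so reads of these genes could have been divided between them.

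H3C10 had 1.38, 1.28 and 1.29 CPM with DMSO and 2.06, 1.53 and 1.69 CPM with PRT3789 at 48 h, a log2 fold change of 0.43 ± 0.23 that was not called. At 72 h it had 1.02, 1.31 and 1.26 CPM against 1.42, 1.74 and 1.08 CPM, and at 6 h 0.788, 1.34 and 1.13 CPM against 0.617, 0.848 and 0.870 CPM. H3C2 was called at 48 h (log2 fold change 1.16 ± 0.45, edgeR adjusted p = 0.0496) at levels of 0.220 to 0.511 CPM with DMSO and 0.597 to 0.925 CPM with PRT3789. Its call was lost in 17 of the 26 alternatives that gave it a value, among them DESeq2 (adjusted p = 0.051).

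Within H4, the most abundant gene and the gene called higher were different ones. H4C15, on chromosome 1, had 59.7, 69.0 and 64.5 CPM with DMSO and 65.1, 65.4 and 66.4 CPM with PRT3789 at 48 h, and 55.0, 48.9 and 52.5 CPM against 60.1, 58.5 and 57.8 CPM at 72 h. Its values at 6 h were 30.4, 39.9 and 44.5 CPM against 34.5, 33.3 and 39.2 CPM. Its log2 fold change was 0.03 ± 0.10 at 48 h and 0.17 ± 0.10 at 72 h, neither called. H4C8, on chromosome 6 at 26277609 to 26285638, had 0.969, 0.766 and 0.478 CPM with DMSO and 3.45, 3.31 and 2.49 CPM with PRT3789 at 48 h, and 1.44, 0.785 and 0.897 CPM against 4.44, 4.42 and 5.08 CPM at 72 h. The treated libraries lay apart from the controls at both times (log2 fold change 2.05 ± 0.45 and 2.15 ± 0.42, edgeR adjusted p = 0.0014 and 0.00047). At 6 h its values of 0.373, 2.51 and 1.28 CPM and of 0.686, 1.73 and 1.25 CPM overlapped.

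Other H4 genes were low and split between copies. H4C14, whose coding sequence is identical to that of H4C15, had 0, 2.43 and 1.54 CPM with DMSO and 0, 3.77 and 1.82 CPM with PRT3789 at 48 h, and 1.65, 3.59 and 1.93 CPM against 1.77, 1.77 and 1.84 CPM at 72 h. Its 6 h values were 0.788, 2.05 and 2.32 CPM against 1.13, 1.17 and 1.18 CPM. Summed with H4C15, it gave a log2 fold change of 0.04 ± 0.11 at 48 h and 0.15 ± 0.11 at 72 h. H4C11, identical in coding sequence to H4C12, had 2.50, 2.65 and 0 CPM with DMSO at 48 h, while H4C12 had 0, 0 and 2.50 CPM in those libraries, and their sum was 2.55 ± 0.0881 CPM. In PRT3789 at 48 h H4C11 had 1.56, 1.04 and 1.23 CPM, at 72 h it had 0, 0.673 and 0.897 CPM with DMSO and 1.53, 0.681 and 0 CPM with PRT3789, and at 6 h 1.41, 0 and 1.80 CPM against 3.05, 1.63 and 2.61 CPM. The sum of the pair is the value to read, and its log2 fold change was -0.09 ± 0.34 at 48 h and 0.50 ± 0.35 at 72 h. H4C5 had 0.969, 1.15 and 0.845 CPM with DMSO and 0.747, 0.663 and 1.16 CPM with PRT3789 at 48 h, and 1.09, 0.561 and 0.997 CPM against 0.937, 0.510 and 0.522 CPM at 72 h, without a call.

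Levels were also scaled per kilobase of the canonical GENCODE transcript, which adjusts for length alone and not for the selection of tails. The order of the genes named here with DMSO at 48 h was H2BC4 (213 CPM per kb), H2BC12 (177), H4C15 (163), H2BC5 (159.7), H1-10 (90.1), H2AC18 (89.1) and H1-2 (50.9). In PRT3789 at 48 h H1-2 stood at 116 CPM per kb, above H1-10 at 84.2. In PRT3789 at 72 h it stood at 118, beside 79.2 for H1-10. Genes with several annotated transcript lengths, H2BC12, H2BC4, H2BC5 and H4C15 among them, are uncertain on this scale. H1-2 carries a stem-loop and H1-10 does not, so oligo(dT) may have captured unlike shares of their messages. The order is that of captured messages only.

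For 10 of the 42 genes the change of the PRT3789 effect between 6 and 48 h was called, in each case upward, where 19.2% of all genes were called, 8.83% upward. The median change was 0.47 on the log2 scale, beside 0.02 over all genes. The change was 1.26 ± 0.23 for H1-2, 1.67 ± 0.27 for H2AC8, 2.42 ± 0.53 for H2BC7 and 2.24 ± 0.64 for H4C8. Without DMSO at 6 h replicate 2, or without PRT3789 at 48 h replicate 2, 5 genes were called, and without DMSO at 48 h replicate 1, 6 were called. Over all genes, the main fit called 1438 upward and 1694 downward. In the order given, those fits called 1111 and 1552, 1093 and 1453, and 1295 and 1543.

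At 6 h the libraries of DMSO themselves differed. Several low histone genes were lower in replicate 1 than in replicates 2 and 3, with H4C3 at 0.249, 1.88 and 1.56 CPM and H4C5 at 0.788, 2.30 and 2.88 CPM. In PRT3789 at 6 h the values were 0.891, 1.45 and 0.870 CPM for H4C3 and 1.10, 2.01 and 2.05 CPM for H4C5. RNAs that carry no tail were also lowest in replicate 1 among the DMSO libraries of 6 h: RN7SK stood at 4.27, 32.2 and 16.9 CPM, RMRP at 1.16, 16.1 and 8.28 CPM and RPPH1 at 1.33, 15.3 and 3.03 CPM. So was the sum of 79 ribosomal protein genes, whose short messages carry tails, at 66774, 102824 and 125598 CPM. At this time RPPH1 was lower with PRT3789 (log2 fold change -3.05 ± 0.65, edgeR adjusted p = 0.011). The Spearman correlation of transcript length with the deviation of a library from the mean, across genes, which are not independent, was 0.51, -0.36 and -0.46 in these libraries and 0.28, 0.46 and -0.48 with PRT3789 at 6 h. At 48 h it was 0.04, -0.31 and -0.22 with DMSO and 0.21, 0.13 and 0.20 with PRT3789, so the treatments did not overlap. At 72 h it ran from -0.12 to 0.15 over both treatments. The part of untailed RNA or transcript length in the histone values at 6 h was not tested.

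**Figure D4:**
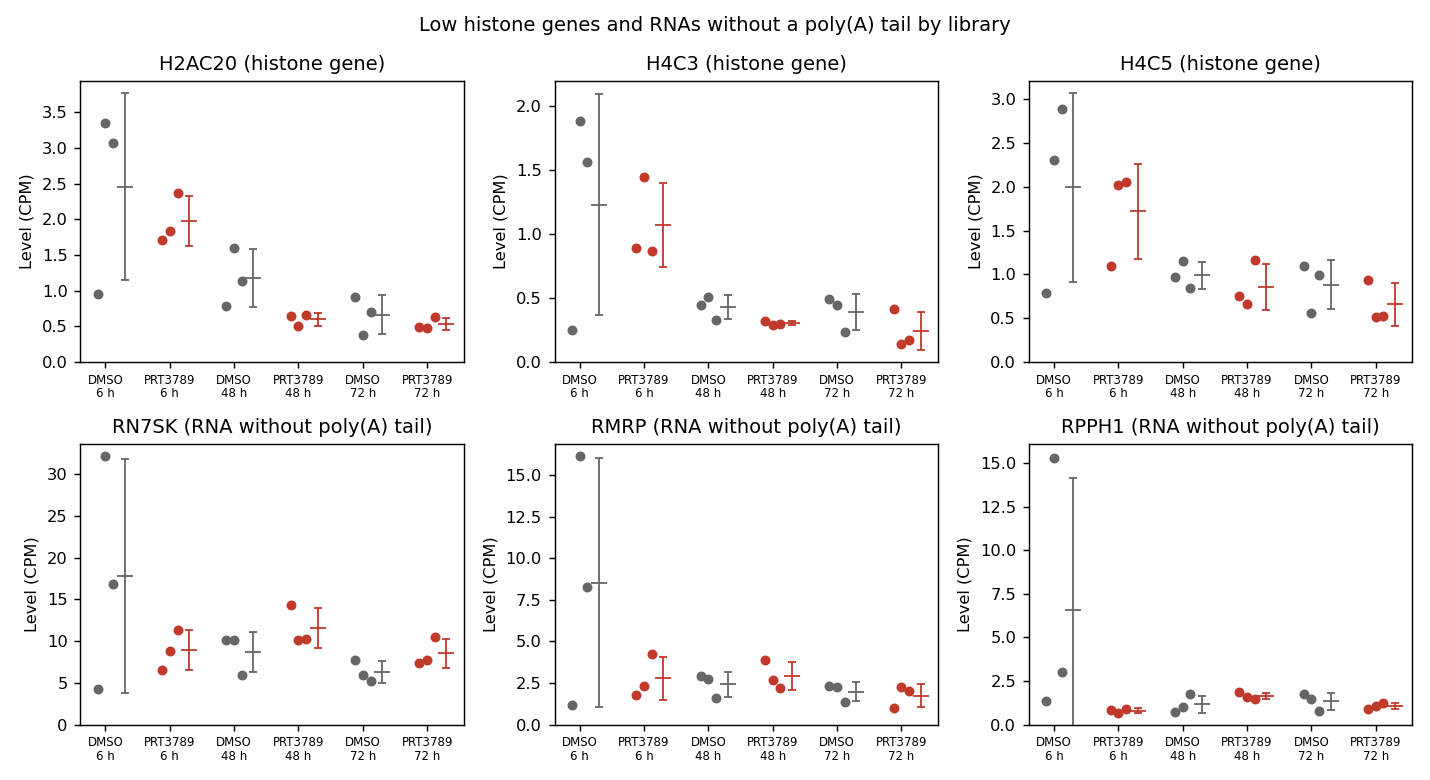
Level in CPM (y axes, from 0) of 3 low histone genes (upper row) and of 3 RNAs without a tail (lower row) in every library (points), with the group mean and SD, bars that would pass below 0 being clipped there. In DMSO at 6 h replicates 2 and 3 lie above replicate 1 in each of the 6 panels.

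The culture time with DMSO divided the histone genes. From 6 to 48 h, 7 were called higher and 8 lower, where 37.2% of all genes were called, 17.1% higher and 20.1% lower. With the length trend removed the split was 12 higher and 3 lower, and with library totals in place of TMM it was 7 higher and 6 lower. That scaling moved the median of all genes from 0.00 to 0.11 and their split from 2781 higher and 3278 lower to 3793 and 2090. With the length trend removed, the split over all genes was 3270 higher and 3207 lower. H3C6 rose by 1.37 ± 0.21, H2BC21 by 0.82 ± 0.08, H2AC11 by 0.82 ± 0.27, H4C15 by 0.75 ± 0.11, H2BC5 by 0.67 ± 0.07, H2AC6 by 0.66 ± 0.18 and H2BC4 by 0.39 ± 0.14 on the log2 scale. H1-10 fell by 0.33 ± 0.08. H2AC20, H3C2, H3C15, H4C2 and H4C3 were lower too, with log2 changes from -6.00 to -1.05, and these 5 calls, with that of H2AC19, were lost without DMSO at 6 h replicate 2. The H2BC4 call was lost in 5 of 25 alternatives, among them without DMSO replicate 1 of 6 h (log2 change 0.23, edgeR adjusted p = 0.109) and without DMSO replicate 2 or 3 of 48 h. The H2AC11 call was lost without DMSO replicate 1 of 6 h (log2 change 0.57) or DMSO replicate 2 of 48 h (edgeR adjusted p = 0.079 and 0.080). The H1-10 call was lost with the length trend removed (edgeR adjusted p = 0.131).

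The change over time with DMSO was also counted by length, a difference that was not tested. Of the 10 tested genes that span over 1000 bases in RefSeq, 5 were called higher and 2 lower from 6 to 48 h, with a median log2 change of 0.40. Of the 32 shorter ones, 2 were called higher and 6 lower, with a median of -0.64. These 6 lower calls are those lost without DMSO at 6 h replicate 2, as given above. Removing the length trend also changed the split of calls over the tested histone genes. Over all tested genes 17.1% were called higher and 20.1% lower in this time. The 6 histone genes listed as known sources of tailed messages, H1-10, H2AC6, H2BC5, H2BC12 and H2BC21 among them, had 3 higher and 2 lower calls over this time. With PRT3789, 1 of these 6 was called higher at 48 h and 4 at 72 h, beside 21.2% and 21.3% of all genes. From 48 to 72 h with DMSO, 1 of 42 histone genes was called, H2BC5, with a log2 change of -0.35 ± 0.07, beside 0.54% of all genes. That call was lost in 14 of 25 alternatives, among them leaving out any one DMSO library of 48 or 72 h (edgeR adjusted p = 0.067 to 0.181), and with the length trend removed the change was -0.05 (adjusted p = 0.865).

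Calls were counted by position. Of the 70 genes, 34 lie in a first block of chromosome 6 (25726063 to 26285534 of GRCh38), 21 in a second block (27132316 to 27893891), 11 on chromosome 1 (149782689 to 149887965) and 4 alone. In the first block 9 of 21 tested genes were called higher at 48 h and 10 at 72 h. In the second block 2 of 11 were called at each time, on chromosome 1 2 of 8, and of the lone genes 0 of 2. Over all tested genes 21.2% were called higher at 48 h and 21.3% at 72 h. The second block and chromosome 1 lay near those shares. The difference between blocks was not tested. Calls and uncalled genes lay side by side within the first block, where H4C5, with a log2 fold change of -0.43 ± 0.44 at 72 h, lies between H2BC7 and H2AC8. Of 3 other tested genes in the first block, named after their values were seen, HFE-AS1 had a log2 fold change of 2.20 at 48 h and 2.88 at 72 h and TRIM38 of -1.13 and -1.33, all called, and HFE of 0.22, called, at 48 h.

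**Figure D5:**
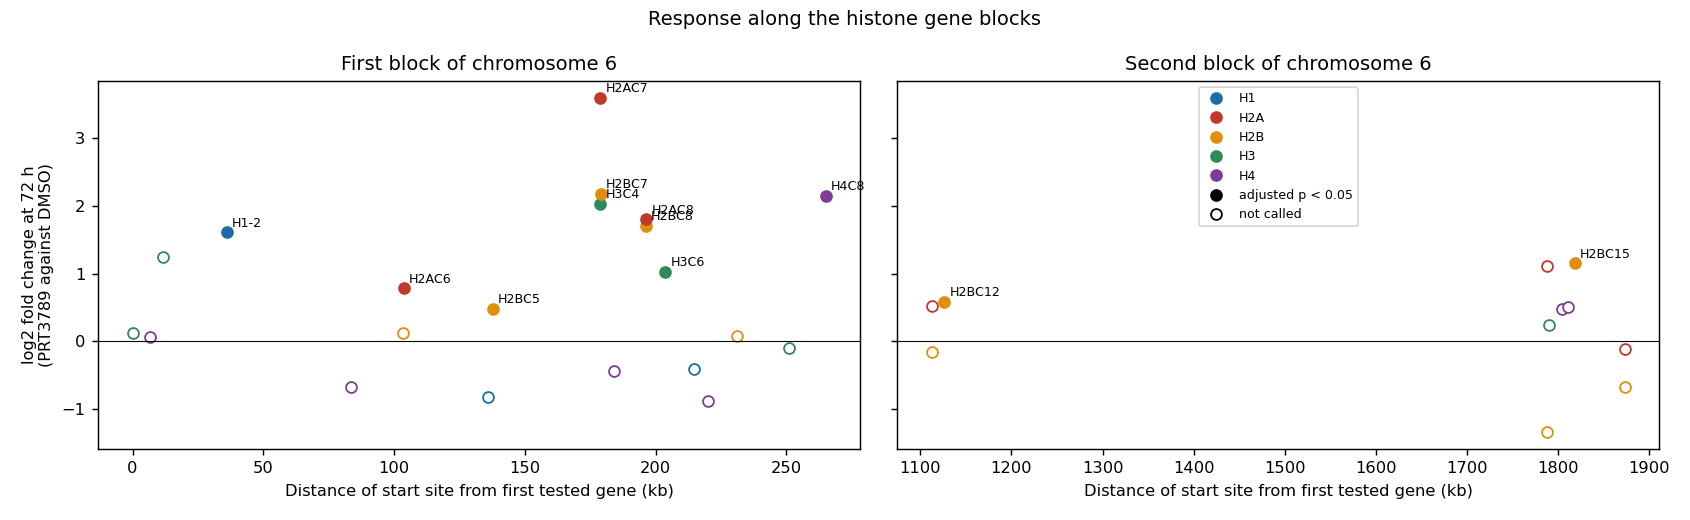
Log2 fold change of PRT3789 against DMSO at 72 h (y axis) for tested histone genes of chromosome 6 by distance of their start from the first tested gene (x axis, kb), coloured by family, with filled points for an adjusted p under 0.05. The first block holds 10 filled points among 21 and the second block 2 among 11, beside 21.3% of all tested genes called higher.

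H2A and H2B genes often stand head to head and share the DNA between their starts. H2AC7 and H2BC7 start 222 bases apart, and both were called higher at 48 and 72 h. The same held for H2BC8 and H2AC8, which start 232 bases apart. The 48 h call of H2AC7 was lost in 5 of 27 alternatives. Reads of H2AC7 could also have been divided with H3C4, whose RefSeq span takes it in. In other pairs only 1 partner was called: at 72 h H2AC6 beside H2BC4 and H2BC21 beside H2AC20, and at 48 h H2AC11 beside H2BC11. In the pair H2BC13 and H2AC13 neither was called, with log2 fold changes of -1.34 and 1.12 at 72 h.

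RefSeq promoter windows, from 250 bases before to 50 after the start, matched 64 of the 70 genes. Windows are printed for H2AC8 and H2AC7, whose pairs rose together, for H2AC20, whose partner alone was called, and for H4C8, which has no such partner among the histone genes. Capitals mark matches on either strand to ATTTGCAT (the octamer bound by POU2F1), CCAAT (the box bound by NF-Y) and TATAAA. None of these matches overlap each other.
H2AC8: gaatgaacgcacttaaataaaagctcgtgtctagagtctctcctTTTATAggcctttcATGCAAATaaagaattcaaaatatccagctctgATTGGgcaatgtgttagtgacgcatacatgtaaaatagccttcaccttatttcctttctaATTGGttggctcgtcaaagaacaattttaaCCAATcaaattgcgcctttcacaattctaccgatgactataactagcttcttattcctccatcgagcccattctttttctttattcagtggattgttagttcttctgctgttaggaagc
H2AC7: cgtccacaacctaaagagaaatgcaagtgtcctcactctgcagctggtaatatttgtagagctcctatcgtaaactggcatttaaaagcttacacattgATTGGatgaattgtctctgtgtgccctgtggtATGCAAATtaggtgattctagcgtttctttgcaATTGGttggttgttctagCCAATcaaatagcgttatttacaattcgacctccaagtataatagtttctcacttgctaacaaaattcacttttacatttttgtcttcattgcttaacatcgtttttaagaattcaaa
H2AC20: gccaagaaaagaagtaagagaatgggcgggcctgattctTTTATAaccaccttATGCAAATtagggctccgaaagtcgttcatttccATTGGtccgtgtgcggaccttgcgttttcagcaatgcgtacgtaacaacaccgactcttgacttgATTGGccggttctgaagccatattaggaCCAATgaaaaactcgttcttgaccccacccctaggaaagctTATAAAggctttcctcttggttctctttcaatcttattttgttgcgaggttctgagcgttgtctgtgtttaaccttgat
H4C8: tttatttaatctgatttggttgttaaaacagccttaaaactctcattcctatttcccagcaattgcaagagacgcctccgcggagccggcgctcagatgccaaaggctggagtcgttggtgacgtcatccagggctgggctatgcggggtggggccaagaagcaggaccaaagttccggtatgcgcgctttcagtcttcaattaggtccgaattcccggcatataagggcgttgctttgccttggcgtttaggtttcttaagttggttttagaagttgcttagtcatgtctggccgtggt
The printed windows lie on GRCh38.p14 at chr6:26216671-26216970 (plus strand), chr6:26199244-26199543 (minus strand), chr1:149886668-149886967 (plus strand) and chr6:26285485-26285784 (minus strand). The octamer was in 26 of 64 histone windows (40.6%) and in 1.77% of all 35116 windows. It was in 11 of 15 H2A and 14 of 17 H2B windows, in 1 of 11 H3 windows and in no window of H1 or H4. Head-to-head H2A and H2B genes start 193 to 247 bases apart, so the windows of partners overlap and a match can count for both. The counts of windows, also those by call below, are therefore not counts of separate sites. CCAAT was in 54 of 64 (84.4%), beside 34.6% of all windows, and TATAAA in 42 of 64 (65.6%), beside 11.5%. Among genes called higher at 72 h, 8 of 14 windows held the octamer, 13 held CCAAT and 8 held TATAAA, and among other tested genes 8, 19 and 19 of 26. The octamer went with the family, as counted above, and the split between called and other genes was not tested. The windows of H2AC8, H2AC7 and H2AC20 hold the octamer and 3 CCAAT matches each. H2AC20 was not called, but its window takes in the 235 bases between its start and that of H2BC21. H2BC21 was called at 72 h. The printed windows were chosen after the calls were seen, and a link between letters and calls was not tested. No letters of the 3 motifs were found in the H4C8 window.

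Most genes of DNA synthesis fell at the times when the histone genes above rose. Of 45 DNA replication genes, 2 were called higher and 31 lower at 48 h, and 2 higher and 40 lower at 72 h, with median log2 fold changes of -0.37 and -0.56. Their sum was 3041 ± 67.3 CPM with DMSO against 2429 ± 9.62 CPM at 48 h with PRT3789 and 3369 ± 17.2 against 2357 ± 28.2 CPM at 72 h. POLA2, a subunit of the primase polymerase, fell by 0.54 ± 0.05 and 0.79 ± 0.05 on the log2 scale, and TK1, which supplies thymidine monophosphate, by 0.79 ± 0.07 and 0.92 ± 0.07. DBF4, the activator of the replication kinase CDC7, fell by 0.90 ± 0.08 and 0.98 ± 0.08, and the ligase LIG1 by 0.27 ± 0.06 and 0.75 ± 0.06. In DMSO from 6 to 48 h 43 of the 45 genes fell, where 20.1% of all tested genes were called lower. At 6 h none of the 45 was called with edgeR. With PRT3789, 21.2% of all tested genes were called higher and 20.9% lower at 48 h, and 21.3% and 22% at 72 h. Neither this list nor those below were tested against these shares.

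The replacement histones, which can also be made outside S phase and come from other loci, went down more often than up. Of 12 tested, 1 was called higher and 7 lower at 48 h, and 2 higher and 5 lower at 72 h. Over all tested genes 20.9% were called lower at 48 h and 22% at 72 h. CENPA, the histone H3 variant of centromeres, fell by 1.29 ± 0.15 and 1.33 ± 0.15, MACROH2A1 by 0.70 ± 0.05 and 0.71 ± 0.05, H2AZ2 by 0.62 ± 0.08 and 0.71 ± 0.08 and H2AX, the variant phosphorylated at DNA breaks, by 0.50 ± 0.07 and 0.43 ± 0.07 (log2 scale, 48 and 72 h).

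Of 13 genes of histone mRNA processing, 2 were called higher and 3 lower at 48 h, and 0 higher and 6 lower at 72 h. Over all tested genes 42.1% were called at 48 h and 43.4% at 72 h, in both directions together. ERI1, an exonuclease that trims and degrades stem-loop messages, fell by 0.53 ± 0.09 and 0.75 ± 0.09. LSM11, a subunit of the U7 particle that directs cleavage after the stem-loop, fell by 0.83 ± 0.15 at 72 h, with a log2 fold change of -0.38 ± 0.15 at 48 h that was not called. CASP8AP2, a protein of the histone locus body, fell by 0.31 ± 0.08 at 72 h, and the cleavage factor CSTF2 by 0.30 ± 0.07 and 0.26 ± 0.07. Of 24 histone chaperones, 5 were called higher and 6 lower at 48 h and 3 higher and 9 lower at 72 h. ASF1B, which hands over new H3 and H4, fell by 0.68 ± 0.06 and 0.78 ± 0.06, the CENPA chaperone HJURP by 0.76 ± 0.07 and 0.87 ± 0.07, ANP32E by 0.50 ± 0.09 and 0.88 ± 0.09 and CHAF1A, of chromatin assembly factor, by 0.27 ± 0.07 and 0.53 ± 0.07.

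Of 14 genes of S-phase entry and histone transcription, 3 were called higher and 3 lower at each of the later times. These counts lay near the shares of all tested genes called, 42.1% at 48 h and 43.4% at 72 h. NFYA, a subunit of the factor that binds CCAAT, rose by 0.50 ± 0.06 at both. CDK2, which acts at the entry to S phase, fell by 0.45 ± 0.06 and 0.63 ± 0.06, and the transcription factor E2F1 by 0.29 ± 0.07 and 0.42 ± 0.07. The phosphatase CDC25A fell by 0.53 ± 0.09 at 72 h. Of 79 ribosomal protein genes, whose messages are short like those of histones but carry tails, 0 were called higher at 48 and 72 h, and 21 and 8 lower. Of 7 tested RNAs without a tail, 0 were called at 48 h and 1 was lower at 72 h. RN7SK, RMRP and RPPH1 had log2 fold changes between -0.32 and 0.51 at these times, none of them called.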

How the data were processed

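Messenger RNA was measured in 18 libraries, 3 in each of 6 groups. Per the labels, tailed RNA was selected with oligo(dT) beads for strand-specific libraries, sequenced from both ends at 150 bp. The deposited values are expected counts made by the authors with nf-core/rnaseq 3.17.0 (Trim Galore, STAR on GRCh38 with annotation release 110, RSEM), per the labels; they were already whole numbers. RSEM divides reads that fit several genes, so values of near-identical histone copies are uncertain. There are no molecular identifiers, so the floor covers counting error only.

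The filterByExpr filter, given the 6 groups, left 16291 genes. After TMM scaling, a single edgeR 4.0.16 model (R 4.3.3) held all 18 libraries, and comparisons used its robust quasi-likelihood F test. P-values were adjusted by Benjamini-Hochberg over all tested genes and called under 0.05. The tests were checked on counts simulated from the fitted spread without a trend over transcript length, so the check does not cover such a trend. The histone genes and the gene lists were chosen with earlier results of these data known. The labels do not say whether replicates were separate cultures, so p-values measure the spread between libraries, which may be technical. Replicate numbers did not enter the model.

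Named in full were the 3 histone genes of each family with the highest mean CPM and those at or above 1 CPM with the 3 highest and 3 lowest changes at 48 and 72 h. Per-library values of other histone genes were chosen after their calls were seen. The 4 genes with the smallest p at 72 h are named from each other list. Stem-loops and gene positions come from GENCODE v44, promoters from RefSeq (GRCh38.p14). Alternatives were DESeq2 1.42.0 and its size factors, library totals, no filter, a filter of 1 CPM in 3 libraries, replicate number as a block, each time fitted apart, removal of a trend over transcript length, and each library left out. Summing identical copies was added after seeing the data. Values of 1 histone gene of the H1 family, and sums that rest mainly on it, are not reported here.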

Additional observations from a re-analysis of the deposited data

Results flagged for a closer look

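For 10 histone genes the effect of PRT3789 differed between 6 and 48 h by a test of the difference itself (edgeR interaction, in log2 units; positive values mean a higher effect at 48 h). The change was 1.26 for H1-2 (adjusted p = 0.00078), 1.67 for H2AC8 (0.00029), 2.42 for H2BC7 (0.0035), 2.24 for H4C8 (0.021), 3.53 for H2AC7 (0.026) and 1.98 for H3C2 (0.033). It was 1.11 for H3C4 (0.037), 0.51 for H2BC5 (0.0021) and 0.32 for H2BC12 (0.020). H2AC19 gave 12.83 (0.041), a value that has no interpretable size because DMSO at 48 h was at 0 in all libraries. The calls of H1-2, H2AC8, H2BC5 and H2BC7 held under all 26 alternatives that give this comparison; the other 6 were each lost under at least 1. The uneven DMSO libraries of 6 h enter every value of this comparison. Their part was not tested.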

How the results depend on the processing

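The count of histone genes called between PRT3789 and DMSO lay between 9 and 17 at 48 h and between 13 and 18 at 72 h over 27 alternatives. At 48 h 8 of 13 calls (H1-2, H2AC8, H2BC7, H2BC8, H2BC12, H3C4, H3C6 and H4C8) and at 72 h 13 of 14 held under every alternative that gave them a value. No called value changed sign. H3C7 and H2AC20 at 48 h, H2BC13 at 48 h and H3C15 at 72 h were called lower under some alternatives. With a replicate block in the model, 12 genes were called at 48 h, 15 at 72 h, 1 at 6 h and 7 for the change from 6 to 48 h; deviations of the 9 same-numbered pairs correlated at -0.24 to 0.34, 5 of 18 libraries correlated best with their own number, and the block gives no value for times in DMSO. Fits of each time apart give no comparison between times. At 6 h 0 were called with each time fitted apart or the length trend removed, and 0 to 2 with a library left out. Over all genes at 6 h, 209 were called higher and 496 lower in the main fit. The counts were 21 and 126 with each time fitted apart, and 397 and 678 with the length trend removed. The change from 6 to 48 h gave 5 to 14 calls with a library left out. DMSO from 48 to 72 h gave 2 calls with DESeq2 size factors, 0 without a filter, 2 with a filter of 1 CPM, 5 with DESeq2 and 0 to 4 with a library left out. Over all genes that comparison gave 63 higher and 25 lower calls in the main fit and 313 and 224 with DESeq2. It gave 57 and 28 with DESeq2 size factors, 63 and 24 without a filter and 66 and 35 with 1 CPM. Leaving out DMSO at 6 h replicate 1 gave 344 and 211. With library totals in place of TMM, sums in PRT3789 at 48 h were 336 CPM for H2B, 15.01 for H3 and 78.1 for H4, and at 72 h 128 for H2A, 309 for H2B and 72.8 for H4. The cause of these differences was not tested. Genes below about 1 CPM were limited by depth, and differences in them were not detectable unless large.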
